A study of Arabidopsis thaliana with 4 samples.

Results

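The effect of *upf3-1* was measured in Arabidopsis seedlings that already carried *upf1-5*, by setting the *upf1-5 upf3-1* double mutant against the *upf1-5* single mutant. The genes described are those with an annotated Arabidopsis gene identifier, a value in both libraries and an expression level of 1 FPKM or more in at least 1 of them. FPKM expresses the sequenced fragments of a gene relative to the length of its transcript and to the size of the library. By this rule 19202 genes were compared, of 20478 annotated genes with a value in both libraries and 21284 annotated genes in the whole series. The series holds 4 RNA-seq libraries. They are from the double mutant *upf1-5 upf3-1*, from each of its parents, *upf1-5* and *upf3-1*, and from wild type (WT, named Col-0 in the deposited table), with 1 library each. All seedlings were grown on 1/2 MS plates at 23°C in long days and collected at ZT 16, that is 16 h after lights on. Each library came from pooled whole seedlings, so fewer cells of a type and less RNA per cell cannot be told apart. No genotype has a replicate. The values below therefore carry no error, no test was possible, and a gene is called higher or lower only when its levels differed at least 2-fold between the libraries.

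Nonsense-mediated mRNA decay (NMD) removes mRNAs on which translation ends too early or too far from the normal end of the message. UPF1 is the RNA helicase at the centre of the pathway, and UPF3 links it to the exon junction complex, the protein mark left where an intron was removed. In plants, mRNAs with an exon junction well after the stop codon, with a long 3′ untranslated region (3′ UTR) or with an upstream open reading frame can be recognised. Arabidopsis *upf1* and *upf3* mutants are known for raised defence gene expression and late flowering. Both libraries compared here carry *upf1-5*, a T-DNA insertion allele, and the double mutant carries the T-DNA insertion allele *upf3-1* in addition.

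*UPF3* (AT1G33980, chromosome 1) had 7.10 FPKM in *upf1-5 upf3-1* and 33.7 FPKM in *upf1-5*, which is 4.75-fold lower in the double mutant. It had 6.35 FPKM in *upf3-1* and 20.8 FPKM in WT, so both libraries labelled *upf3-1* were low. *UPF1* (AT5G47010, chromosome 5) had 8.27 FPKM in *upf1-5 upf3-1* and 3.18 FPKM in *upf1-5*, against 30.6 FPKM in *upf3-1* and 23.9 FPKM in WT. Both libraries labelled *upf1-5* were thus low for *UPF1*, and the double mutant had 2.60 times the level of the single mutant. Neither transcript was absent from its mutant, and a value per gene does not say which part of the transcript the fragments came from.

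Of the 19202 genes, 1757 (9.15%) were higher and 775 (4.04%) were lower at 2-fold in *upf1-5 upf3-1* than in *upf1-5*. Higher genes thus made up 69.4% of the 2532 genes past 2-fold, while 86.8% of the genes stayed within 2-fold. The higher genes had a median of 6.12 FPKM in *upf1-5 upf3-1* and 1.93 FPKM in *upf1-5*. The lower genes had a median of 4.52 FPKM in *upf1-5 upf3-1* and 12.5 FPKM in *upf1-5*. At 4-fold, 491 genes were higher and 124 were lower. The median log2 ratio over all genes was -0.01, but the summed FPKM was 761013 in *upf1-5 upf3-1* and 980290 in *upf1-5*. Scaling the libraries to the same sum multiplied the levels of the double mutant by 1.29 and moved the median log2 ratio of all genes to 0.35. The split then became 2903 higher and 304 lower genes, with 90.5% of them higher, so the directions below are read against the median of all genes. At the 2-fold limit, 280 genes had a fold from 2 to 2.1 and 363 had a fold from 1.9 to 2, and 125 genes reached no more than 1.1 FPKM, while 134 genes with a highest level from 0.9 to 1 FPKM were left out.

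**Figure D1:**
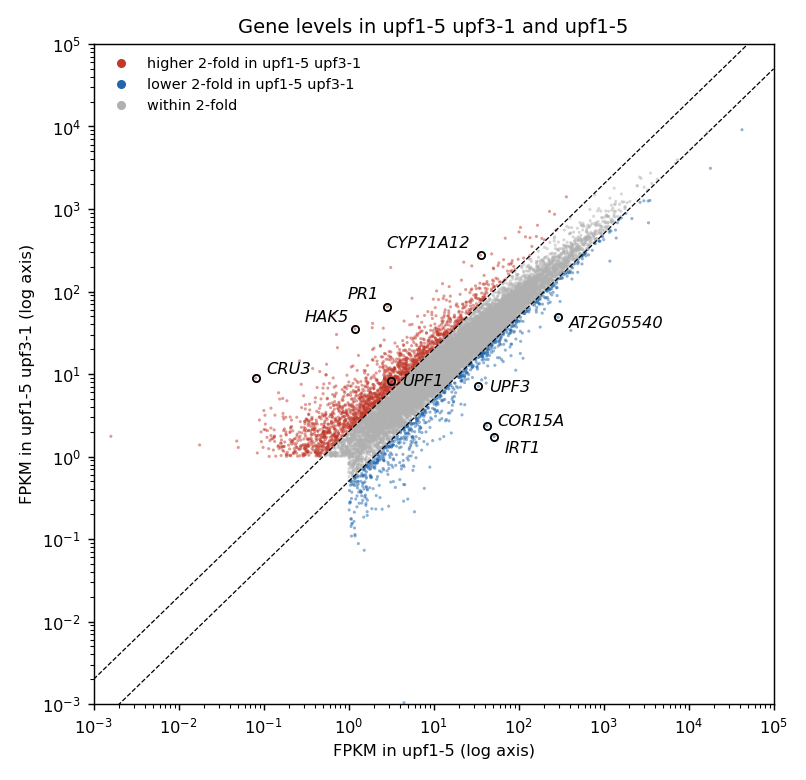
Expression of 19202 genes in *upf1-5 upf3-1* (vertical axis, FPKM, log scale) against *upf1-5* (horizontal axis, FPKM, log scale), 1 library each, with dashed lines at 2-fold. Most points lie between the lines, the 1757 higher genes (red) lie mainly at low levels, and circled genes are described in the text. *CRU3* lies farthest to the left of the named genes, at 0.0805 FPKM in *upf1-5*.

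The size of the shift depended on abundance. When the genes were divided into 5 equal classes by their mean level in both libraries, 24.7% of the genes in the lowest class (median 2.37 FPKM) were higher and 8.36% were lower. In the second class (median 7.61 FPKM) 9.45% were higher and 2.45% were lower, and in the middle class (median 15.1 FPKM) 4.58% were higher and 1.72% were lower. The fourth class (median 28.8 FPKM) had 3.67% higher and 2.27% lower. In the highest class (median 82.0 FPKM) the order turned round, with 3.33% higher and 5.39% lower and a median log2 ratio of -0.28. The lowest class began at a mean of 0.51 FPKM, and a gene with such a mean reaches 1 FPKM in 1 library only if its levels lie far apart. Part of the shares in this class thus follows from the filter. With 1 FPKM required in both libraries, 1179 of 18169 genes were higher and 587 were lower. The number of fragments behind each value was not analysed here, so how much of the spread at low levels is counting error is unknown.

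**Figure D2:**
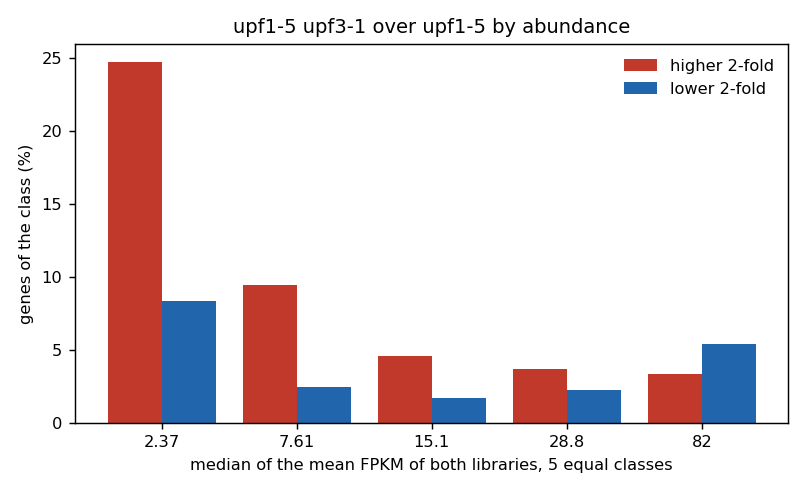
Percentage of genes higher (red) and lower (blue) at 2-fold in *upf1-5 upf3-1* than in *upf1-5*, in 5 equal classes of genes ordered by the mean FPKM of both libraries, with the class median below each pair of bars. The share of higher genes is 24.7% in the lowest class and 3.33% in the highest, where lower genes are more frequent.

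Most components of NMD differed little between the 2 libraries. Of 22 NMD and mRNA decay factors, *UPF1* was higher and *UPF3* was lower, and the other 20 were within 2-fold. *ERF1-1*, which encodes a translation termination factor and whose own mRNA is an NMD target, had 82.0 FPKM in *upf1-5 upf3-1* and 77.3 FPKM in *upf1-5*, against 77.4 FPKM in *upf3-1* and 27.7 FPKM in WT. WT was the lowest library, and the ratio of the double mutant to *upf1-5* was 1.06, whereas the ratio of *upf3-1* to WT was 2.79. Its annotated stop codon shows the first of the features named above, an exon junction well downstream. The sequence is from the RefSeq annotation of TAIR10.1, in the sense of the mRNA, with the stop codon in capitals.
ERF1-1: gatgattcggaaTGAcaatcaatcaaatcc
In this model of *ERF1-1* (chromosome 5, 19386045 to 19388587), 1 exon junction follows the stop codon at 130 nt, within a 3′ UTR of 433 nt.

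The 24 splicing regulators known to make NMD-sensitive isoforms were all within 2-fold, with a median log2 ratio of -0.19. The splicing factor gene *SR30* had 98.4 FPKM in *upf1-5 upf3-1* and 83.4 FPKM in *upf1-5*, and *GRP7*, a glycine-rich RNA-binding protein that controls its own splicing, had 1220 FPKM and 1732 FPKM in the same order of libraries. Values per gene do not separate the isoforms. Among 10 genes with a conserved upstream open reading frame, only *HSF4* passed 2-fold, with 109.7 FPKM in *upf1-5 upf3-1* and 40.5 FPKM in *upf1-5*. *SAC51*, which controls stem elongation, had 177.3 FPKM in *upf1-5 upf3-1* and 114.4 FPKM in *upf1-5*, against 170.8 FPKM in *upf3-1* and 73.3 FPKM in WT.

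Annotated NMD features were read from the reference for 18700 of the 19202 genes. Genes with any model in which an exon junction lay over 50 nt downstream of the stop numbered 1846, of which 6.07% were higher and 2.55% were lower. Of 6505 genes with a 3′ UTR of 350 nt or more, 6.44% were higher and 2.97% were lower. Of 3450 genes with an upstream open reading frame of 35 codons or more, 7.45% were higher and 2.23% were lower. The 9947 genes with none of these had the largest shares, 10.9% higher and 4.80% lower, but were also expressed at a lower level (median 13.7 FPKM, against 15.5, 17.9 and 15.8 FPKM in the 3 feature classes). Among genes with a mean of 10 FPKM or more, 2.38%, 3.09% and 3.26% of the 3 classes and 4.74% of genes without a feature were higher. In the same order 2.55%, 2.65% and 1.83% of the 3 classes and 3.59% of genes without a feature were lower. Without this filter, only the class without a feature exceeded the 9.15% of higher genes and the 4.04% of lower genes among all genes. Its median log2 ratio was -0.03, against 0, 0 and 0.04 in the 3 feature classes, so larger shares past 2-fold did not go with a higher median.

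Lists of genes linked to defence differed among themselves, and their shares are read beside the 9.15% higher and 4.04% lower of all genes. Of all 15765 genes reaching 5 FPKM, 984 were higher and 515 were lower. Here and below, counts of list members at 5 FPKM belong beside these numbers and not beside 9.15% and 4.04%. Of 61 genes annotated as WRKY transcription factors, the regulators best known from pathogen responses, 20 (32.8%) were higher and none was lower, with a median log2 ratio of 0.66, and 13 of them were higher among genes reaching 5 FPKM. *WRKY75* had 36.1 FPKM in *upf1-5 upf3-1* and 6.83 FPKM in *upf1-5*, against 11.5 FPKM in *upf3-1* and 2.14 FPKM in WT. *WRKY48*, a regulator of basal defence, had 11.1 FPKM in *upf1-5 upf3-1* and 2.88 FPKM in *upf1-5*. *WRKY38* had 3.17 FPKM in *upf1-5 upf3-1* and 0.136 FPKM in *upf1-5*, a ratio that rests on a very low value. *WRKY70*, by contrast, had 33.3 FPKM in *upf1-5 upf3-1* and 28.0 FPKM in *upf1-5*, both above the 6.59 FPKM in *upf3-1* and 4.39 FPKM in WT.

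*PR1*, the classical marker of salicylic acid signalling, had 65.5 FPKM in *upf1-5 upf3-1* and 2.87 FPKM in *upf1-5*, a ratio of 22.9. It had 4.31 FPKM in *upf3-1* and 1.60 FPKM in WT, so the double mutant alone was high. *PR5* had 24.9 FPKM in *upf1-5 upf3-1* and 10.5 FPKM in *upf1-5*, against 5.29 FPKM in *upf3-1* and 5.61 FPKM in WT. *BGL2*, the third marker of this group, was low in all libraries, with 1.66 FPKM in *upf1-5 upf3-1* and 1.18 FPKM in *upf1-5*. Of the 21 salicylic acid genes in all, 5 (23.8%) were higher and 1 (4.76%), *ALD1*, was lower, but among genes reaching 5 FPKM only *PR1* and *PR5* were higher and none was lower. Besides these the higher genes were *WRKY38*, *FMO1*, a monooxygenase of systemic resistance, with 4.48 FPKM in *upf1-5 upf3-1* and 1.93 FPKM in *upf1-5*, and AT3G48080, a paralog of *EDS1*, with 3.15 FPKM in *upf1-5 upf3-1* and 1.22 FPKM in *upf1-5*. *ALD1*, an enzyme of pipecolic acid synthesis, had 0.215 FPKM in *upf1-5 upf3-1* and 1.66 FPKM in *upf1-5*. Some regulators were within 2-fold, with *EDS1* at 14.1 FPKM in *upf1-5 upf3-1* and 13.6 FPKM in *upf1-5*, *PAD4* at 21.0 and 18.0 FPKM, and *EDS16*, which encodes the salicylic acid synthesis enzyme, at 14.8 and 11.2 FPKM in the same order.

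Chitinases, which break down fungal cell walls, were higher for 8 of 17 genes (47.1%) and lower for none. AT2G43590 had the highest level of them in the double mutant, with 443 FPKM in *upf1-5 upf3-1* and 69.6 FPKM in *upf1-5*, against 57.9 FPKM in *upf3-1* and 24.1 FPKM in WT. *ChiC* (AT4G19810) had 124.6 FPKM in *upf1-5 upf3-1* and 12.7 FPKM in *upf1-5*, against 23.5 FPKM in *upf3-1* and 4.36 FPKM in WT. *CHI* (AT2G43570) had 65.4 FPKM in *upf1-5 upf3-1* and 19.3 FPKM in *upf1-5*. *CHI* had 4.31 FPKM in *upf3-1* and 2.19 FPKM in WT, and for all 3 genes the double mutant was the highest library and WT the lowest. Among 99 resistance genes of the NLR class, the intracellular immune receptors, 16 were higher and none was lower, but 15 of the higher ones did not reach 5 FPKM. Leucine-rich repeat kinases were higher for 16 (13.2%) and lower for 1 of 121, and lectins were higher for 18 (23.1%) and lower for 1 of 78, with 8 and 5 of them higher among genes reaching 5 FPKM. Defensins, small antimicrobial peptides, had 3 (12.0%) higher and 8 (32.0%) lower of 25 and a median log2 ratio of -0.16. After scaling to the same sum 10 of 25 were higher and 4 were lower, so the order of these counts depended on scaling. Their median log2 ratio was then 0.20, beside 0.35 for all genes. Genes annotated as pathogenesis-related had 5 higher and 1 lower of 21 and a median log2 ratio of -0.03, with 12 ratios below 1.

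WRKY factors bind the W-box, and its sequence TTGACC or TTGACT was sought on both strands of the 300 bases before the annotated start of each gene. This motif was chosen after the levels were seen. It was present before 31.5% of 37897 annotated genes and 32.0% of the 19121 compared genes with such a sequence. The shares were 39.4% of the higher genes and 28.3% of the lower genes. Of the WRKY, salicylic acid and chitinase genes compared it was present before 35 of 97 (36.1%). Of those that were higher it was present before 11 of 32 (34.4%), close to the 32.0% of the compared genes. The first 4 genes examined, *PR1*, *ChiC*, *CYP71A12* and *HAK5*, hold none, and the 4 below are instead the most abundant higher genes of these lists that hold one. Each window of 30 bases reads 5′ to 3′ on the strand of the gene, with the motif in capitals, as AGTCAA where it lies on the opposite strand (RefSeq, TAIR10.1).
AT2G43590: aacacgaccaaaAGTCAAactcgtttcgaa
CHI: ttggcgttgacgTTGACTcagaaaactaca
AT4G01700: tccactaaaaaaAGTCAAaacgtagaccaa
WRKY75: gagggccgcctcttcgtctTTGACTtcata
The motif begins 139 bases before the start in AT2G43590, 49 in *CHI*, 100 in the chitinase gene AT4G01700 (45.5 FPKM in *upf1-5 upf3-1* and 21.2 FPKM in *upf1-5*) and 11 in *WRKY75*. These are matches of letters and not measured binding sites.

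Of 137 genes for cytochrome P450 enzymes, which modify many secondary metabolites, 43 (31.4%) were higher and 6 (4.38%) were lower. The shares of all genes were 9.15% and 4.04%, and the median log2 ratio of the P450 genes was 0.42. Among genes reaching 5 FPKM, 22 were higher and 6 were lower. *CYP71A12*, an enzyme of indolic defence compounds, had 276 FPKM in *upf1-5 upf3-1* and 35.7 FPKM in *upf1-5*, against 2.39 FPKM in *upf3-1* and 2.23 FPKM in WT. *CYP82C2*, which acts in a related pathway, had 36.4 FPKM in *upf1-5 upf3-1* and 1.897 FPKM in *upf1-5*, against 0.204 FPKM in *upf3-1* and 0.206 FPKM in WT. Both genes were thus more than 2-fold above WT only in the libraries with *upf1-5*, although *CYP82C2* was still low in *upf1-5* itself. In *upf3-1* alone both were within 2-fold of WT, which for *CYP82C2* rests on 2 levels under 1 FPKM. *CYP71A12* has close paralogs between which fragments may be divided. Glycosyltransferases of the UGT family, which add sugars to such compounds, had 9 (14.1%) higher and 8 (12.5%) lower of 64, with a median log2 ratio of 0.06.

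Of 51 glutathione transferases, which attach glutathione to toxic compounds, 16 (31.4%, beside 9.15% of all genes) were higher and 3 (5.88%, beside 4.04%) were lower. *GSTU10* had 80.7 FPKM in *upf1-5 upf3-1* and 9.93 FPKM in *upf1-5*, against 6.93 FPKM in *upf3-1* and 3.76 FPKM in WT. *GSTU25* had 114.7 FPKM in *upf1-5 upf3-1* and 15.2 FPKM in *upf1-5*, against 50.7 FPKM in *upf3-1* and 5.38 FPKM in WT. *GSTU20* went the other way, with 215.7 FPKM in *upf1-5 upf3-1* and 556 FPKM in *upf1-5*, against 500.4 FPKM in *upf3-1* and 510.4 FPKM in WT. The efflux carrier *DTXL1* had 30.1 FPKM in *upf1-5 upf3-1* and 0.721 FPKM in *upf1-5*, against 2.53 FPKM in *upf3-1* and 1.19 FPKM in WT. ABC transporters, which export many compounds, were higher for 21 of 82 (25.6%) and lower for none, with 13 higher among genes reaching 5 FPKM. Their highest ratios included *ABCB4*, an auxin transporter, with 50.8 FPKM in *upf1-5 upf3-1* and 10.7 FPKM in *upf1-5*.

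NAC transcription factors were higher for 18 of 57 genes (31.6%, beside 9.15% of all genes) and lower for none, with a median log2 ratio of 0.58. *NAC042*, a regulator of stress tolerance and lifespan, had 51.3 FPKM in *upf1-5 upf3-1* and 7.82 FPKM in *upf1-5*, against 1.903 FPKM in *upf3-1* and 0.807 FPKM in WT. *NAC047* had 56.2 FPKM in *upf1-5 upf3-1* and 9.53 FPKM in *upf1-5*, against 19.1 FPKM in *upf3-1* and 3.51 FPKM in WT. For both, the double mutant was the highest library and WT the lowest. MYB factors (20 higher and 2 lower of 132), ERF factors (9 and 3 of 87) and bHLH factors (12 and 7 of 89) lay closer to the shares of all genes. Among genes reaching 5 FPKM these counts were 10 and 1, 6 and 1, and 8 and 2.

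Peroxidases had the largest share of higher genes among lists of 13 or more members, 29 of 60 genes (48.3%, beside 9.15% of all genes). Another 3 (5.0%, beside 4.04%) were lower, and the median log2 ratio was 0.94. *PRXCB*, a cell wall peroxidase that forms reactive oxygen species, had 527 FPKM in *upf1-5 upf3-1* and 101.2 FPKM in *upf1-5*, against 181.6 FPKM in *upf3-1* and 37.5 FPKM in WT. *PER49* had 57.1 FPKM in *upf1-5 upf3-1* and 8.55 FPKM in *upf1-5*, against 23.3 FPKM in *upf3-1* and 1.45 FPKM in WT. The levels of both were ordered double mutant, *upf3-1*, *upf1-5* and WT. Over the peroxidases measured for *upf3-1* and WT, 39 of 56 were higher and 2 were lower in *upf3-1*. Extensins and arabinogalactan proteins of the cell wall were mixed, with 22 (25.9%) higher and 8 (9.41%) lower of 85.

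Root hair genes differed together. Of 6 root hair markers, 5 were higher in *upf1-5 upf3-1* and none was lower, and their summed level was 99.4 FPKM in *upf1-5 upf3-1* and 29.7 FPKM in *upf1-5*, against 102.5 FPKM in *upf3-1* and 20.8 FPKM in WT. *EXPA7*, an expansin of root hair cells, had 16.9 FPKM in *upf1-5 upf3-1* and 3.94 FPKM in *upf1-5*, against 14.6 FPKM in *upf3-1* and 3.20 FPKM in WT. *PRP3*, a root hair wall protein, had 36.4 FPKM in *upf1-5 upf3-1* and 10.7 FPKM in *upf1-5*, against 44.3 FPKM in *upf3-1* and 8.82 FPKM in WT. *RHD6*, the bHLH factor that starts root hair formation, is outside the 6 markers and was named for its high ratio among the bHLH factors. It had 10.3 FPKM in *upf1-5 upf3-1* and 2.11 FPKM in *upf1-5*, against 6.58 FPKM in *upf3-1* and 0.454 FPKM in WT. Both libraries with *upf3-1* were above both without it for each of these genes. The 10 chlorophyll a-b binding protein genes that marked leaf tissue summed to 4237 FPKM in *upf1-5 upf3-1* and 5224 FPKM in *upf1-5*, against 3827 FPKM in *upf3-1* and 6286 FPKM in WT. Of them 1 was higher and 1 was lower. The sum over all genes was also lower in the double mutant, 761013 FPKM against 980290 FPKM in *upf1-5*. The set does not hold all of the higher light-harvesting genes named further below. The part of tissue proportions in the peroxidase, cell wall, iron and defence results was not tested.

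Seed reserve genes had few values. Of 11 markers, 2 could be compared, and *CRU3*, a storage globulin, had 8.94 FPKM in *upf1-5 upf3-1* and 0.0805 FPKM in *upf1-5*, against 0.904 FPKM in *upf3-1* and 0.266 FPKM in WT. The oil body protein gene *OLEO4* had 2.49 FPKM in *upf1-5 upf3-1* and 1.58 FPKM in *upf1-5*. *CRA1*, *OLEO1* and *OLEO2* had values of 13.2, 3.65 and 5.08 FPKM in *upf1-5 upf3-1* but no value in *upf1-5*, and pairs in which 1 library is at 0 appear to be left out of the deposited table. Late embryogenesis abundant proteins, many of which protect drying seeds, were higher for 15 (27.8%) and lower for 4 (7.41%) of 54. The shares of all genes were 9.15% and 4.04%. Among genes reaching 5 FPKM, 7 of these proteins were higher and 1 was lower. AT3G02480 of this family had 43.8 FPKM in *upf1-5 upf3-1* and 4.50 FPKM in *upf1-5*, against 38.9 FPKM in *upf3-1* and 1.98 FPKM in WT.

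Individual ion transporter genes differed strongly in both directions, but no list of ion transporters was counted. *HAK5*, the high-affinity potassium transporter of roots, had 35.2 FPKM in *upf1-5 upf3-1* and 1.19 FPKM in *upf1-5*, against 17.8 FPKM in *upf3-1* and 0.0812 FPKM in WT. *SULTR1;3*, a sulfate transporter, had 13.1 FPKM in *upf1-5 upf3-1* and 0.550 FPKM in *upf1-5*, against 2.30 FPKM in *upf3-1* and 0.658 FPKM in WT. *IRT1*, the iron importer of roots, had the lowest ratio of all genes reaching 5 FPKM, with 1.75 FPKM in *upf1-5 upf3-1* and 51.5 FPKM in *upf1-5*, against 17.9 FPKM in *upf3-1* and 22.3 FPKM in WT. For *IRT1* the *upf1-5* library was the highest of the 4 and the double mutant the lowest.

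Of 14 iron deficiency genes, 5 (35.7%, beside 4.04% of all genes) were lower and none was higher, with a median log2 ratio of -0.59. *FRO2*, the ferric reductase that works with *IRT1*, had 0.288 FPKM in *upf1-5 upf3-1* and 4.44 FPKM in *upf1-5*. *BHLH100*, *BHLH039* and *BHLH038*, related factors that are induced by low iron, had 31.2, 18.0 and 20.6 FPKM in *upf1-5 upf3-1* against 79.8, 43.6 and 48.7 FPKM in *upf1-5*. In *upf3-1* they had 6.45, 5.36 and 3.25 FPKM, and in WT 29.5, 23.9 and 16.7 FPKM, so *upf3-1* alone was the lowest library. *FIT1*, the master regulator of the response, had 7.46 FPKM in *upf1-5 upf3-1* and 6.90 FPKM in *upf1-5*, and the iron storage gene *FER1* had 72.3 and 71.6 FPKM in the same order. With the libraries scaled to the same sum, 2 of the 14 genes were lower.

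Jasmonate genes were lower for 4 (30.8%, beside 4.04% of all genes) and higher for 1 (7.69%, beside 9.15%) of 13. *PDF1.2*, a defensin, had 0.412 FPKM in *upf1-5 upf3-1* and 7.77 FPKM in *upf1-5*. *AOC2*, an enzyme of jasmonate synthesis, had 177.4 FPKM in *upf1-5 upf3-1* and 406 FPKM in *upf1-5*, against 344 FPKM in *upf3-1* and 671 FPKM in WT. *JAZ1*, a repressor of the pathway, had 37.0 FPKM in *upf1-5 upf3-1* and 17.5 FPKM in *upf1-5*. When scaled to the same sum only *PDF1.2* of the lower genes stayed past 2-fold. Of 8 cold response genes, 3 (37.5%) were lower and 1 (12.5%) was higher, beside 4.04% and 9.15% of all genes. *COR15A*, a chloroplast protein made in the cold, had 2.36 FPKM in *upf1-5 upf3-1* and 42.1 FPKM in *upf1-5*, against 5.72 FPKM in *upf3-1* and 5.15 FPKM in WT, so the *upf1-5* library stood above the other 3. *COR15B* had 14.9 FPKM in *upf1-5 upf3-1* and 63.3 FPKM in *upf1-5*, against 10.5 FPKM in *upf3-1* and 29.6 FPKM in WT.

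Glutaredoxins, small thiol enzymes, were lower for 14 and higher for 2 of 40, with a median log2 ratio of -0.59, and 12 were lower after scaling to the same sum and 9 among genes reaching 5 FPKM. *GRXS3*, *GRXS4* and *GRXS5* had 1.56, 2.71 and 0.744 FPKM in *upf1-5 upf3-1* against 9.75, 15.1 and 9.04 FPKM in *upf1-5*. In *upf3-1* they had 4.18, 6.48 and 5.36 FPKM, and in WT 43.3, 35.5 and 31.7 FPKM. The double mutant was the lowest library for each, but these neighbouring genes are near copies, so how fragments were divided between them is uncertain. Nitrate reductase *NIA1* had 43.4 FPKM in *upf1-5 upf3-1* and 112.8 FPKM in *upf1-5*, while the nitrate transporter *NRT1.1* had 178.8 FPKM in *upf1-5 upf3-1* and 83.6 FPKM in *upf1-5*.

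All 5 genes of a short list of dark and sugar starvation markers were below 1 in their ratio, and 3 were lower at 2-fold. *ASN1*, asparagine synthetase, had 0.968 FPKM in *upf1-5 upf3-1* and 6.202 FPKM in *upf1-5*, against 0.158 FPKM in *upf3-1* and 11.1 FPKM in WT. *DIN10*, a dark-inducible gene, had 26.5 FPKM in *upf1-5 upf3-1* and 92.9 FPKM in *upf1-5*, against 40.3 FPKM in *upf3-1* and 214 FPKM in WT. *DIN2*, a dark-inducible gene outside the list, went the other way, with 8.97 FPKM in *upf1-5 upf3-1* and 0.658 FPKM in *upf1-5*, against 0.946 FPKM in *upf3-1* and 2.40 FPKM in WT. Some abundant genes had the same order as *ASN1* and *DIN10*, WT over *upf1-5* over both libraries with *upf3-1*. *ERD5*, proline dehydrogenase, had 15.5 FPKM in *upf1-5 upf3-1* and 112.8 FPKM in *upf1-5*, against 32.2 FPKM in *upf3-1* and 157 FPKM in WT. *MIOX2*, inositol oxygenase, had 11.1 FPKM in *upf1-5 upf3-1* and 92.5 FPKM in *upf1-5*, against 23.4 FPKM in *upf3-1* and 205.3 FPKM in WT. The glycine-rich protein gene AT2G05540 had 48.7 FPKM in *upf1-5 upf3-1* and 292.7 FPKM in *upf1-5*, against 42.3 FPKM in *upf3-1* and 1024 FPKM in WT.

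Genes of flowering were divided, with 5 higher and 5 lower of 23 (21.7% each, beside 9.15% and 4.04% of all genes). The flowering promoters *FT*, *SOC1* (*AGL20* in the table) and *AGL24* were lower, with 1.36, 4.67 and 4.56 FPKM in *upf1-5 upf3-1* against 6.34, 17.2 and 17.1 FPKM in *upf1-5*. *ATC*, a repressor related to *FT*, had 48.9 FPKM in *upf1-5 upf3-1* and 13.2 FPKM in *upf1-5*, against 47.9 FPKM in *upf3-1* and 20.7 FPKM in WT. *FLC*, the main floral repressor, had 63.1 FPKM in *upf1-5 upf3-1* and 35.8 FPKM in *upf1-5*, within 2-fold, and *MAF3*, a relative of *FLC*, had 55.4 and 50.8 FPKM. Of 16 clock genes 5 (31.2%, beside 9.15%) were higher and none was lower. *CCA1*, a morning factor of the clock, had 3.10 FPKM in *upf1-5 upf3-1* and 0.522 FPKM in *upf1-5*, against 2.85 FPKM in *upf3-1* and 2.26 FPKM in WT. The evening gene *TOC1* had 60.4 FPKM in *upf1-5 upf3-1* and 53.9 FPKM in *upf1-5*. At 5 FPKM or more 3 clock genes were higher.

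Genes of protein synthesis and photosynthesis had ratios mostly below 1, and the share of them past 2-fold differed between lists. All 42 ribosomal proteins of chloroplasts and mitochondria had a ratio below 1, with a median log2 ratio of -0.93. Of these, 14 (33.3%, beside 4.04% of all genes) were lower at 2-fold. *PSRP5*, a chloroplast ribosome protein, had 407 FPKM in *upf1-5 upf3-1* and 887.9 FPKM in *upf1-5*, against 449 FPKM in *upf3-1* and 1127 FPKM in WT. Of 210 cytosolic ribosomal proteins 205 had a ratio below 1, but only 2 were lower and 1 was higher at 2-fold, with a median log2 ratio of -0.58. Photosystem and light-harvesting genes had 9 (16.7%) lower and 4 (7.41%) higher of 54, beside 4.04% and 9.15% of all genes, and a median of -0.67. After scaling to the same sum the medians of these 3 lists were -0.56, -0.21 and -0.31, and 0, 0 and 1 of their genes were lower, while their distance from the median of all genes is not changed by scaling. The 4 higher genes were *PSBK*, which is encoded in the chloroplast, and the light-harvesting genes *CAB2*, *LHCB2.2* and *LHCB2.4*, which belong to families of near copies. Proteasome subunits (60 genes) and common reference genes (9 genes) were all within 2-fold, although 2 and 1 of them were higher after scaling to the same sum.

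Transcripts encoded in the organelles differed by compartment. Of 26 chloroplast genes 8 (30.8%) were lower and 2 (7.69%) were higher, beside 4.04% and 9.15% of all genes. Of 15 mitochondrial genes 7 (46.7%) were higher and 1 (6.67%) was lower. Several of the higher genes had low levels, where higher genes were most frequent. *COX3* had 2.02 FPKM in *upf1-5 upf3-1* and 0.873 FPKM in *upf1-5*. In the same order *NAD5C* had 2.24 and 0.406 FPKM and the chloroplast gene *RPL16* 1.38 and 0.0177 FPKM, while *RRN26* had 49.2 and 17.7 FPKM. *PSBM*, a short chloroplast gene for a photosystem II subunit, had 9135 FPKM in *upf1-5 upf3-1* and 42475 FPKM in *upf1-5*, against 4965 FPKM in *upf3-1* and 28747 FPKM in WT. Cytochrome oxidase gene *COX2* of the mitochondrion had 10.9 FPKM in *upf1-5 upf3-1* and 2.31 FPKM in *upf1-5*, against 4.58 FPKM in *upf3-1* and 1.51 FPKM in WT. The labels name a kit for polyadenylated mRNA and the study's methods name one for total RNA depleted of rRNA, and the part of the kit in the levels of organelle transcripts was not tested.

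**Figure D3:**
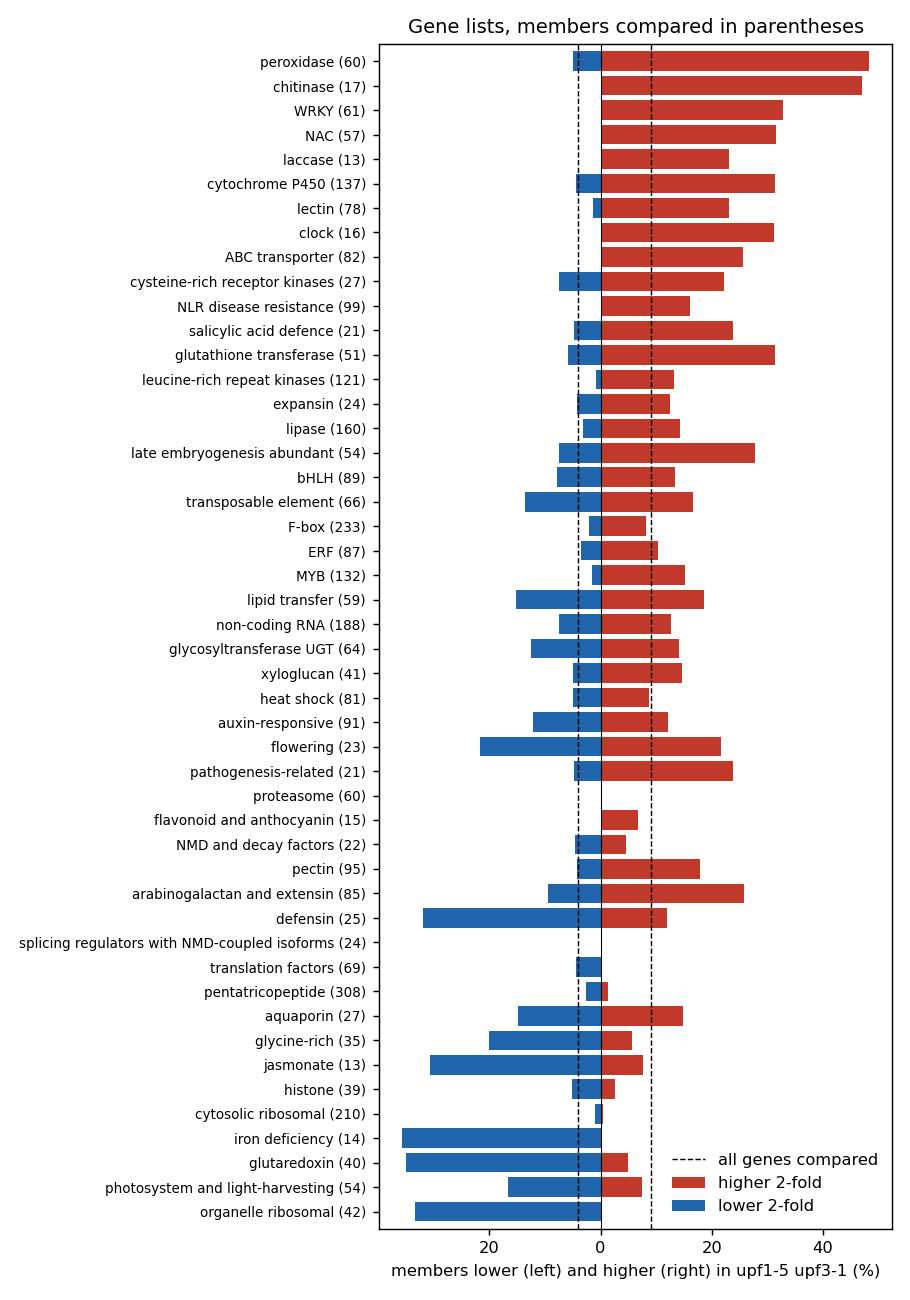
Percentage of the genes of each list that were lower (blue, left) and higher (red, right) at 2-fold in *upf1-5 upf3-1* than in *upf1-5*, ordered by median log2 ratio, with dashed lines at the 4.04% and 9.15% of all genes. Peroxidases, chitinases, WRKY and NAC factors stand at the top and organelle ribosomal proteins at the bottom, and lists under 13 genes, the uncharacterized genes and a cyclin list with false members are left out.

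**Figure D4:**
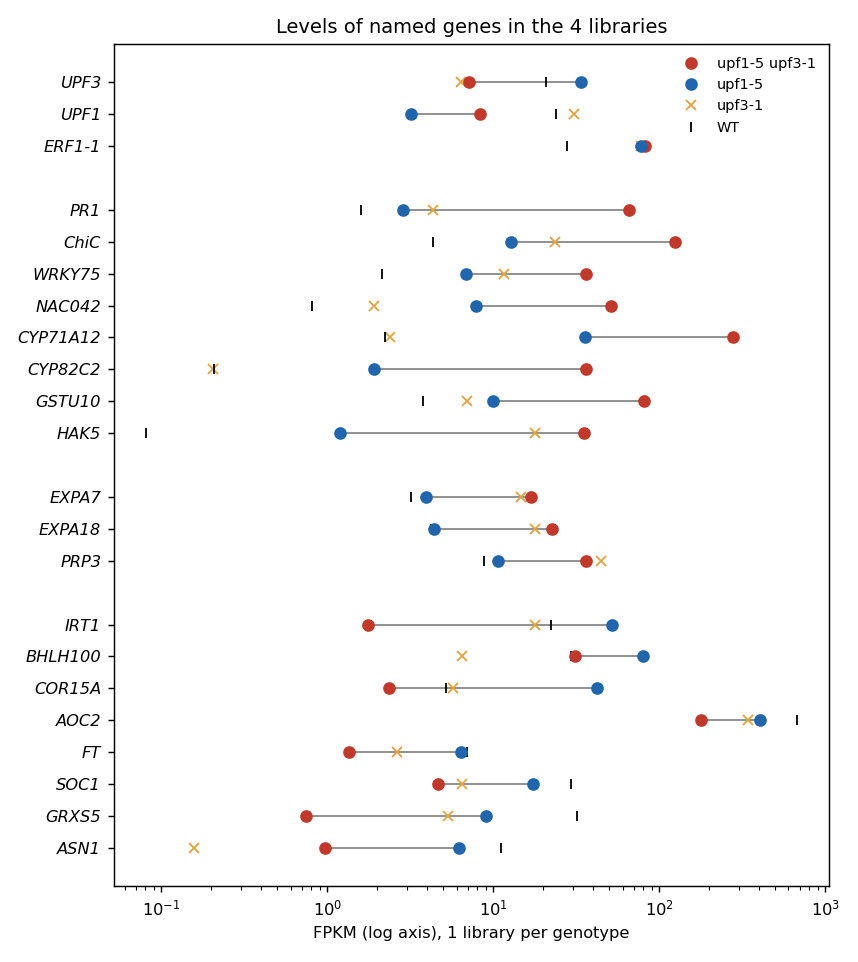
FPKM of named genes (log axis) in *upf1-5 upf3-1* (red), *upf1-5* (blue), *upf3-1* (crosses) and WT (bars), 1 library each, with a line joining the double mutant to *upf1-5*. *PR1* has 65.5 FPKM in the double mutant and under 5 FPKM in the other libraries, while *COR15A* stands out in *upf1-5* with 42.1 FPKM.

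Some of the largest ratios belonged to genes with no described function. AT4G12735 had 54.0 FPKM in *upf1-5 upf3-1* and 0.679 FPKM in *upf1-5*, against 11.6 FPKM in *upf3-1* and 1.14 FPKM in WT. The non-coding RNA AT1G67105 had 227 FPKM in *upf1-5 upf3-1* and 22.7 FPKM in *upf1-5*, against 25.1 FPKM in *upf3-1* and 6.31 FPKM in WT. AT2G01422 had 195.6 FPKM in *upf1-5 upf3-1* and 3.13 FPKM in *upf1-5*, but 50.9 FPKM in *upf3-1* and 229.7 FPKM in WT, so the *upf1-5* library was the one that stood apart. *ILA*, which encodes the HEAT-repeat protein ILITYHIA and is known from immunity, had 33.8 FPKM in *upf1-5 upf3-1* and 412 FPKM in *upf1-5*, against 33.8 FPKM in *upf3-1* and 72.9 FPKM in WT, and it overlaps another gene, to which the fragments may belong.

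The effect of *upf3-1* in *upf1-5* was set beside its effect in WT, since these comparisons share no library. Of 19126 genes with a value in all 4 libraries, 2635 (13.8%) were higher and 1294 (6.77%) were lower in *upf3-1* than in WT. Across these genes the log2 ratios, with 1 FPKM added to every level, had a Pearson's r of 0.525 and a Spearman's rho of 0.506. Genes are not independent replicates, so the coefficients are descriptions. Their root mean square was 0.585 in *upf1-5* and 0.732 in WT. The genes higher in both backgrounds numbered 1001, which is 60.7% of the 1650 higher in *upf1-5* and 38.0% of the 2635 higher in WT. The genes lower in both numbered 286, or 38.0% of 752 and 22.1% of 1294. Higher in *upf1-5* but lower in WT were 83 genes, and 88 were the reverse.

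Gene groups differed in how far they followed this. Flavonoid and anthocyanin genes were higher for 12 of 15 in *upf3-1* than in WT, with a median log2 ratio of 1.54, whereas 1 of 15 was higher in *upf1-5 upf3-1* than in *upf1-5*, with a median of -0.07. *DFR*, an enzyme of anthocyanin synthesis, had 10.7 FPKM in *upf1-5 upf3-1* and 6.83 FPKM in *upf1-5*, against 12.5 FPKM in *upf3-1* and 1.56 FPKM in WT. For *DFR* all 3 mutant libraries were above WT. *GASA5*, a gibberellin-regulated peptide gene, was opposite in the 2 backgrounds, with 1.93 FPKM in *upf1-5 upf3-1* and 16.1 FPKM in *upf1-5*, but 44.1 FPKM in *upf3-1* and 3.54 FPKM in WT. *CHIA*, a chitinase, moved alike, with 88.2 FPKM in *upf1-5 upf3-1* and 13.2 FPKM in *upf1-5*, and with 44.5 FPKM in *upf3-1* and 1.52 FPKM in WT. No difference between the backgrounds could be tested with 1 library per genotype.

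**Figure D5:**
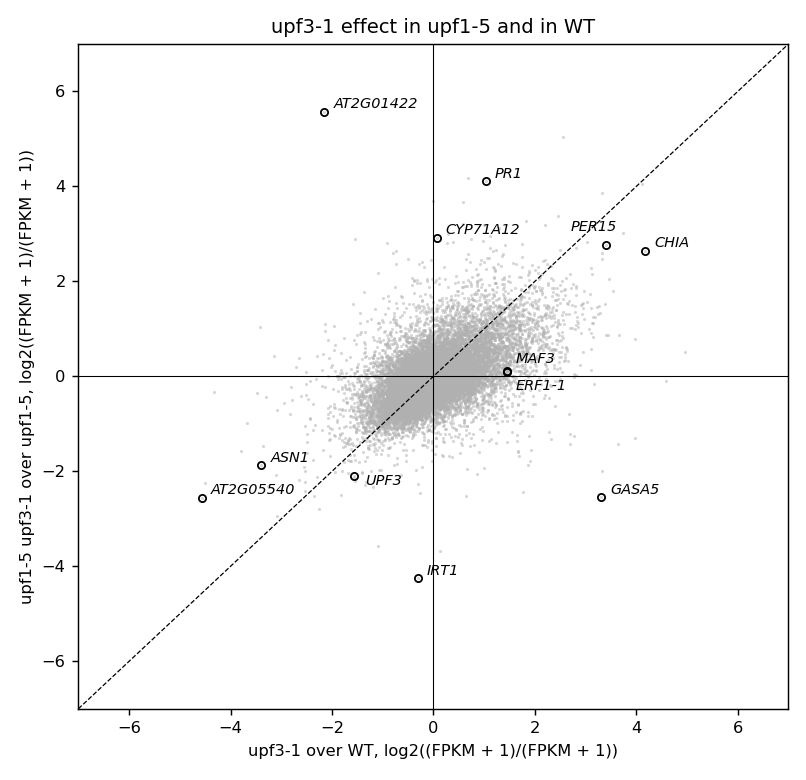
Log2 ratio of *upf1-5 upf3-1* over *upf1-5* (vertical axis) against log2 ratio of *upf3-1* over WT (horizontal axis), with 1 FPKM added to every level, for 19126 genes, and a dashed line where both are equal. The cloud is stretched along the diagonal (r = 0.525), with *PR1* and *CYP71A12* above it and *IRT1* and *GASA5* below it.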

How the data were processed

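The RNA-seq data cover whole seedlings of 4 genotypes without replicates. Per the labels and the study's methods, the authors aligned reads with TopHat and quantified them with Cufflinks on TAIR10. The table deposited by the authors has 127437 lines over 6 pairs of libraries. In it the double mutant has another name than in the labels, and was matched as the only library left after the other 3, and by the study's own table. It gives the summed FPKM of both libraries, and the fold and direction between them, with the fold deposited to 2 decimals. A further deposited column holds q-values of the authors' comparison, which were not used, and 0 columns of single samples were left unused. The labels name a stranded mRNA kit and the methods a total RNA kit, and the RNA kit used was not settled here.

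Both FPKM values of a gene were recovered from its row, as the parts of the sum that have the given fold and direction. Fragment counts are not part of the table, so depth is unknown and no interval, floor or count test was possible. Genes were called at a fold of 2 or more with 1 FPKM or more in at least 1 library. No pseudocount was used, except 1 FPKM for the correlation. The calculation was tested on simulated data.

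The members, gene lists and motif were chosen with earlier results of these data known. There are 57 gene lists, 15 by identifier and 42 by words in the deposited description, and 2 of the description rules (ERF and non-coding RNA) were corrected after their counts were seen. Further lists assembled around the genes with the largest ratios are not reported, and 1 of the named genes is not reported here. Named genes are all members of the 15 lists by identifier. From each of the 42 lists by description, only the members with the highest and lowest ratios at 5 FPKM were taken. Genes named from those lists are thus extremes of the same ratios. Added to these were the 15 highest and 15 lowest ratios at 5 FPKM and the 5 highest and 5 lowest at 100 FPKM. The 10 largest differences between backgrounds in each direction were also taken. Gene models and sequences are from the RefSeq annotation of TAIR10.1, matched by gene identifier. Alternatives were other folds, filters, pseudocounts and scalings. Calculations ran in Python 3.11.15 with pandas 2.3.3, NumPy 2.4.6 and SciPy 1.17.1, and figures were drawn with matplotlib 3.10.9.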

Additional observations from a re-analysis of the deposited data

Results flagged for a closer look

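For 14 of the 52 genes named by rank, the log2 ratio of *upf1-5 upf3-1* over *upf1-5* and that of *upf3-1* over WT passed 2-fold in opposite directions. Part of these 52 were picked for the size of this difference, so the count follows from the choice. Of all 19126 genes with a value in the 4 libraries, 83 were opposite in 1 direction and 88 in the other. The difference was not tested. The log2 ratio in *upf1-5* minus that in WT was 8.14 for AT2G01422, 6.24 for the alternative oxidase gene *AOX1D*, 6.18 for *ATGSTF3*, 5.46 for AT2G21820, 5.38 for AT1G19530, 5.26 for AT1G26390 and 5.11 for *DIN2*. It was -6.70 for *GASA5*, -6.45 for *ATAGP30*, -6.15 for AT2G05441, -5.43 for AT1G53542, -5.06 for *CYB561D*, -4.72 for *ATMRU1* and -4.15 for AT3G33528. *AOX1D* had 6.87 FPKM in *upf1-5 upf3-1* and 0.426 FPKM in *upf1-5*, and 0.130 FPKM in *upf3-1* and 0.610 FPKM in WT, so most of its values were under 1 FPKM. AT1G26390, annotated as an FAD-binding protein, had 40.01 FPKM in *upf1-5 upf3-1* and 5.59 FPKM in *upf1-5*, and 0.178 FPKM in *upf3-1* and 0.952 FPKM in WT. AT1G53542 overlaps another gene.

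A further 11 genes had 5 FPKM or more in *upf1-5 upf3-1*, from its pairs with other libraries, and no higher value in WT, but no value in the pair with *upf1-5*, and were therefore not compared. Their levels in *upf1-5 upf3-1* were 1371 FPKM for AT4G30097, 412 FPKM for AT1G31258, 65.5 FPKM for AT5G04238, 26.3 FPKM for *M17*, 13.2 FPKM for *CRA1*, 9.35 FPKM for AT5G36925, 7.94 FPKM for *ATPER1*, 7.77 FPKM for *BGLU19*, 6.99 FPKM for AT5G53820, 6.195 FPKM for AT4G33467 and 5.08 FPKM for *OLEO2*. *M17*, *CRA1*, *ATPER1* and *OLEO2* are known from maturing seeds. AT4G30097 is a very short gene, for which FPKM is least certain. In the other direction, 7 genes had 5 FPKM or more in *upf1-5* and no value in *upf1-5 upf3-1*. No limit on the WT level was set for these 7, so their number is not comparable with the 11 above. *PSAJ*, *PDF1.3* and *PDF1.2b* had more in WT, with 3192, 18.5 and 10.4 FPKM. Their levels in *upf1-5* were 1376 FPKM for the chloroplast gene *PSAJ*, 62.1 FPKM for AT5G50562, 10.8 FPKM for AT5G57080, 7.88 FPKM for *PDF1.2b*, 7.49 FPKM for *PDF1.3*, 6.45 FPKM for AT2G36030 and 5.28 FPKM for *RPS18*.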

How the results depend on the processing

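The direction of the split, with more higher than lower genes, held under every alternative run. At a fold of 1.5 the counts were 3178 higher and 2769 lower, at 4-fold 491 and 124, with 5 FPKM in at least 1 library 984 and 515, with a pseudocount of 1 FPKM 1147 and 489, and with the same summed FPKM 2903 and 304. Genes higher in both backgrounds numbered 1926 at a fold of 1.5, 176 at 4-fold and 632 with 5 FPKM, and genes lower in both 1364 at a fold of 1.5 and 22 at 4-fold. The share of higher genes among those with a junction after the stop codon was 3.94% with 5 FPKM and 2.38% with a mean of 10 FPKM, where it was 3.09% with a long 3′ UTR, 3.26% with an upstream open reading frame and 4.74% with no feature. This alternative was chosen after seeing the data, as were scaling the lists to the same sum, leaving out overlapping or organelle genes and the list rules as first written. Other filters, scaling to a median ratio of 1 or to the same 75th percentile, and leaving out overlapping or organelle genes kept the main counts within 1.5 times. Of 172 values over the gene lists 50 changed with 5 FPKM, 5 with the same 75th percentile and none with a median ratio of 1. Of 52 named ratios 23 moved with a pseudocount of 1 FPKM, and none reversed. No paired analysis was possible because each genotype has 1 library, and for the same reason no library could be left out.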
